A study of Arabidopsis thaliana with 6 samples.

Results

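The genes described here are nuclear genes of Arabidopsis thaliana for the photosystems, their light-harvesting antennae, the electron carriers between them and the chloroplast ATP synthase. A list of 51 loci was taken, and a gene counted as measured where the annotation of the Affymetrix ATH1 array tied some probe set to that gene alone. This left 8 of the 51, among 13356 genes measured in this way, while 43 of the loci were not analysed here. The 8 were 3 of 14 LHCB antenna genes of photosystem II (LHCB4.1, AT5G01530, LHCB4.2, AT3G08940, and LHCB4.3, AT2G40100), 2 of 12 photosystem I subunit genes (PSAE-1, AT4G28750, and PSAN, AT5G64040), 2 of 11 photosystem II subunit genes (PSBW, AT2G30570, and PSBY, AT1G67740) and 1 of 2 ATP synthase genes (ATPC1, AT4G04640). None of the 6 LHCA genes and none of the 6 electron carrier genes was measured, so the counts below describe 8 genes and not the photosynthetic apparatus. Here a gene not measured is one that the annotation used did not name, and 8730 of 22746 probe sets had no gene name in it. The gap therefore does not show that the array lacks probes for these loci.

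Seedlings of the Columbia 0 ecotype, 7 days old, received either 5 µM of a synthetic amide, called the compound below, given from a stock in dimethyl sulfoxide (DMSO), or the same amount of DMSO alone, and whole seedlings were taken for RNA 24 h later. The compound joins 2-(2,4-dichlorophenoxy)propanoic acid, a relative of the synthetic auxin 2,4-D, to an aniline that bears an isobutyrylamino group and a methoxy group. Each group held 3 biological replicates with 1 array each, and each replicate pooled the seedlings of 24 wells sown with 5 seeds per well. Both groups carried the solvent, and no untreated seedlings were analysed here. The samples mixed shoot and root, so that fewer green cells and less of a transcript per green cell cannot be told apart.

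Light is captured by chlorophyll bound to the antenna proteins and passed to the reaction centres of photosystem II, which takes electrons from water, and photosystem I, which passes them on to ferredoxin. The reaction centre cores are encoded in the chloroplast genome, whereas the antenna proteins and many smaller subunits are encoded in the nucleus and imported. Their transcripts are among the most abundant of green tissue, respond to light and follow the circadian clock.

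The values were log2 expression values made by the authors with RMA, a method that subtracts background, gives all arrays a common distribution and condenses each probe set into a single value. By its title the study deals with auxin signalling in photorespiratory cell death, and the values below show how far transcripts of the light reactions differed after the compound. The medians of the 6 arrays lay between 5.75 and 5.79. For orientation, 3 auxin-responsive genes were read, chosen with earlier results of these data known, so their rise is no independent check of the treatment. IAA29, WES1 (also named GH3.5) and LBD29 were 4.34-fold, 3.58-fold and 3.84-fold higher with the compound than with DMSO (limma, adjusted p 0.0142, 0.0147 and 0.0173). Across the array, limma called 78 of 22746 probe sets (0.343%) at an adjusted p below 0.05 in a model of treatment alone, 27 up (0.119%) and 51 down (0.224%). With the replicate number of the titles as a block it called 865 (3.8%), 416 up (1.83%) and 449 down (1.97%).

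Limma called 0 of the 8 measured photosystem, antenna and ATP synthase genes without the block and 0 with it, against those background shares of 0.343% and 3.8%. When the block was joined with a prior variance that followed the signal, a fit added after the data were seen, 1 of the 8, LHCB4.2, passed downward, where 1133 of all probe sets (4.98%) were called, 595 of them down (2.62%). At an unadjusted p below 0.05 limma counted 0 of the 8 without the block and 1, LHCB4.2, with it. Over all 22746 probe sets it counted 1220 without the block and 3645 with it. The log2 fold changes, compound minus DMSO, ran from -0.23 for LHCB4.2 to 0.12 for ATPC1, with a median of -0.06 beside 0.01 over all probe sets. The mean was below that of DMSO in 7 of the 8 genes, and 45.2% of all probe sets had a lower mean with the compound. The size of the difference had a median of 0.083 over the 8 genes and 0.085 over all probe sets.

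**Figure D1:**
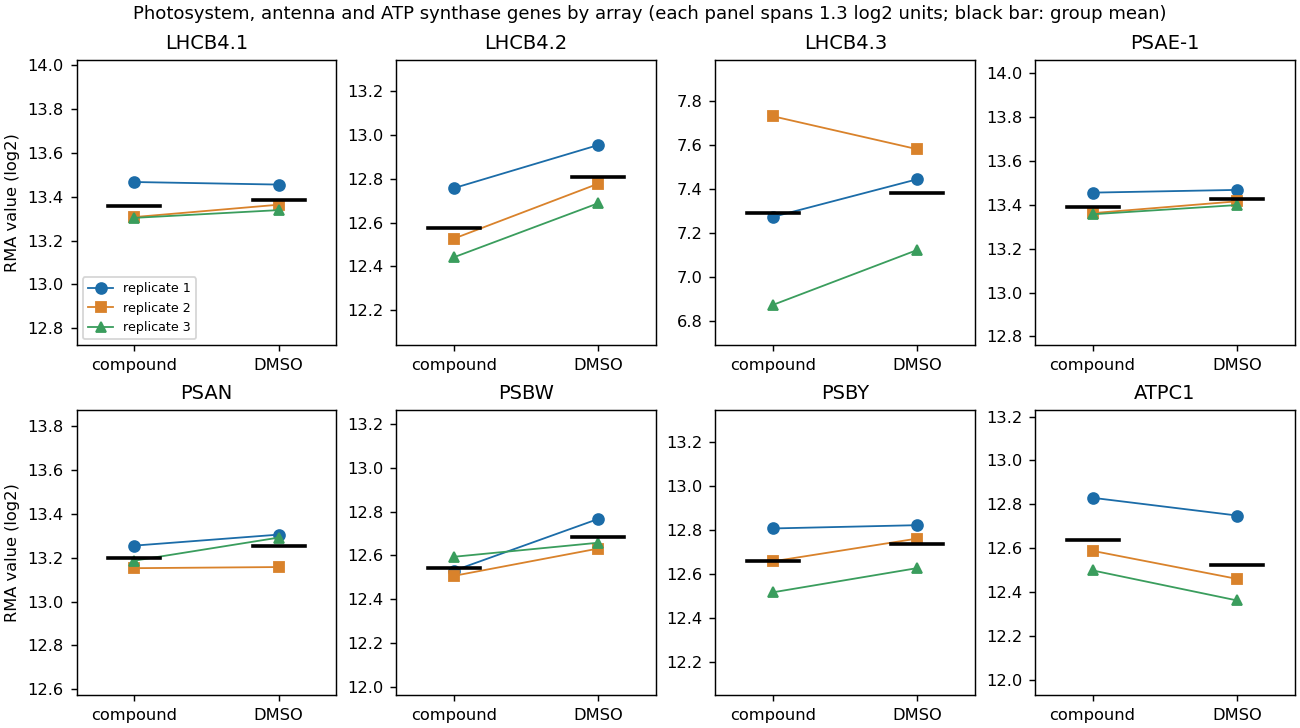
RMA values (log2) of the 8 measured genes on each array, the 3 compound arrays left and the 3 DMSO arrays right, with lines joining arrays of the same replicate number and black bars for group means. PSBW alone has groups that do not overlap, LHCB4.2 has 3 nearly parallel lines, and LHCB4.3 spreads most between replicate numbers.

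The 3 measured antenna genes encode forms of CP29, a minor antenna protein that sits between the photosystem II core and the outer trimeric antenna. LHCB4.1 had RMA values of 13.47, 13.31 and 13.30 in compound replicates 1, 2 and 3, against 13.46, 13.36 and 13.34 in DMSO replicates 1, 2 and 3. The groups overlapped, and the log2 fold change was -0.03 (SE 0.09, limma adjusted p = 0.999). The differences within replicate numbers were 0.01, -0.06 and -0.04, of mixed sign.

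LHCB4.2 encodes a second, closely similar CP29 and had the lowest log2 fold change of the 8 genes. RMA values were 12.76, 12.53 and 12.44 in compound replicates 1, 2 and 3, against 12.95, 12.78 and 12.69 in DMSO replicates 1, 2 and 3. Compound replicate 1 lay above DMSO replicate 3, so the groups overlapped, yet each compound array was below the DMSO array of its own number, by -0.20, -0.25 and -0.25. These 3 differences were close to each other, while the means of the 3 replicate numbers spanned 0.29. Compound arrays averaged 12.58 ± 0.16 and DMSO arrays 12.81 ± 0.13 (SD, n = 3 each), which gave a log2 fold change of -0.23 (SE 0.12, limma adjusted p = 0.999). With the block the standard error was 0.07, and the 95% interval of the log2 fold change, before adjustment, was -0.40 to -0.06. Limma's adjusted p was then 0.174. With the block and a prior variance that followed the signal, LHCB4.2 fell (SE 0.05, limma adjusted p = 0.0411). Without pair 1, 2 or 3 the adjusted p of that fit was 0.131, 0.148 and 0.199, at log2 fold changes of -0.25, -0.22 and -0.22. The size thus held and the call did not. Leaving out a pair also leaves fewer arrays, so the higher adjusted p cannot be laid to a particular pair.

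LHCB4.3, the third gene of the CP29 group, differs from the other two in a shortened protein and is known for its expression under strong light. It was the only one of the 8 measured genes outside the brightest 1% of probe sets. Compound replicates 1, 2 and 3 had RMA values of 7.27, 7.73 and 6.87, against 7.45, 7.58 and 7.12 in DMSO replicates 1, 2 and 3. Replicate 2 was the highest and replicate 3 the lowest in both groups, and the groups overlapped. The log2 fold change was -0.09 (SE 0.23, limma adjusted p = 0.999), with differences within replicate numbers of -0.17, 0.15 and -0.25.

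The difference between 2 CP29 genes within an array removes what moves both alike, and the 3 such pairs were compared after their values had been seen. LHCB4.2 minus LHCB4.1 was -0.71, -0.78 and -0.86 on the log2 scale in compound replicates 1, 2 and 3, against -0.50, -0.59 and -0.65 in DMSO replicates 1, 2 and 3. The compound arrays lay wholly below the DMSO arrays, and the gap between group means was -0.20, with -0.21, -0.19 and -0.21 within replicate numbers. The exact two-sided permutation test gave p = 0.1, the smallest that 3 against 3 arrays allow, and 0.3 after Benjamini-Hochberg adjustment over the 3 pairs. That test could not have fallen below 0.05. LHCB4.1 differed by -0.03 between the groups and LHCB4.2 by -0.23, so the gap largely restates the difference of LHCB4.2 and is no separate support. No background share is given for such differences between genes. LHCB4.3 minus LHCB4.1 and LHCB4.3 minus LHCB4.2 had gaps of -0.06 and 0.14, with exact permutation p of 0.9 and 0.7 (adjusted 0.9 each). Since the array's probes differ between the genes, these values say nothing of which transcript is more abundant. LHCB4.1 lies nearer to the top of the array's signal than LHCB4.2, and whether this bears on the gap was not tested.

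Of photosystem I, PSAE-1 encodes a form of the stromal subunit PsaE near the ferredoxin docking site. Its RMA values were 13.46, 13.36 and 13.36 in compound replicates 1, 2 and 3, against 13.47, 13.42 and 13.40 in DMSO replicates 1, 2 and 3. The groups overlapped, and the log2 fold change was -0.04 (SE 0.08, limma adjusted p = 0.999). PSAN encodes a subunit on the lumen side, where plastocyanin delivers electrons. For PSAN the RMA values were 13.25, 13.15 and 13.19 in compound replicates 1, 2 and 3, against 13.31, 13.16 and 13.29 in DMSO replicates 1, 2 and 3. These groups overlapped too, with a log2 fold change of -0.05 (SE 0.09, limma adjusted p = 0.999). Both photosystem I genes were lower with the compound within each replicate number, by at most -0.05 for PSAE-1 and -0.11 for PSAN.

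Of photosystem II, PSBW encodes a small membrane subunit known to stabilise the supercomplexes of photosystem II with its antenna. The arrays gave RMA values of 12.53, 12.51 and 12.59 in compound replicates 1, 2 and 3, against 12.77, 12.63 and 12.66 in DMSO replicates 1, 2 and 3. All compound arrays lay below all DMSO arrays, which held for 1 of the 8 genes here and for 4.37% of all probe sets. For 5.37% of all probe sets the compound arrays lay wholly above, so that 9.74% had groups that did not overlap. The log2 fold change of PSBW was -0.14 (SE 0.08, limma adjusted p = 0.999, and 0.447 with the block), and the differences within replicate numbers were -0.24, -0.12 and -0.06.

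PSBY encodes a precursor that is cut into small membrane polypeptides of photosystem II. Its RMA values were 12.81, 12.66 and 12.52 in compound replicates 1, 2 and 3, against 12.82, 12.76 and 12.63 in DMSO replicates 1, 2 and 3. The groups overlapped, and the log2 fold change was -0.08 (SE 0.11, limma adjusted p = 0.999). Within replicate numbers PSBY differed by -0.01, -0.10 and -0.11.

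ATPC1, which encodes the gamma subunit that forms the rotating shaft of the chloroplast ATP synthase, was the 1 gene of the 8 with a higher mean with the compound. RMA values stood at 12.83, 12.59 and 12.50 in compound replicates 1, 2 and 3, against 12.75, 12.46 and 12.36 in DMSO replicates 1, 2 and 3. The groups overlapped widely, because replicate 1 stood above the others in both groups. The log2 fold change was 0.12 (SE 0.14, limma adjusted p = 0.999), and the differences within replicate numbers were 0.08, 0.13 and 0.14, all above 0. With the block the standard error was 0.07 and the adjusted p 0.524.

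The intervals give the size of change that each fit allows, as far as the array signal is linear, and they depend on the fit. With the block, the 95% intervals of limma for single genes, not adjusted for their number, spanned 0.756-fold to 0.961-fold for LHCB4.2, 0.8-fold to 1.1-fold for LHCB4.3, and 0.799-fold to 1.03-fold for PSBW. For ATPC1 the interval was 0.961-fold to 1.22-fold. Those of the other 4 genes, LHCB4.1, PSAE-1, PSAN and PSBY, lay between 0.839-fold and 1.11-fold. Limma's adjusted p with the block was 0.916 for LHCB4.1, 0.741 for LHCB4.3, 0.878 for PSAE-1, 0.808 for PSAN and 0.707 for PSBY. With the block the SE was 0.073 to 0.077 for all but LHCB4.3 (0.098), with 2 residual degrees of freedom. Without the block, as in the main fit, the intervals were wider. They spanned 0.697-fold to 1.04-fold for LHCB4.2, 0.789-fold to 1.04-fold for PSBW and 0.857-fold to 1.37-fold for ATPC1. That of LHCB4.3 was 0.636-fold to 1.39-fold, the widest of the 8. Those of LHCB4.1, PSAE-1, PSAN and PSBY lay between 0.791-fold and 1.14-fold.

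**Figure D2:**
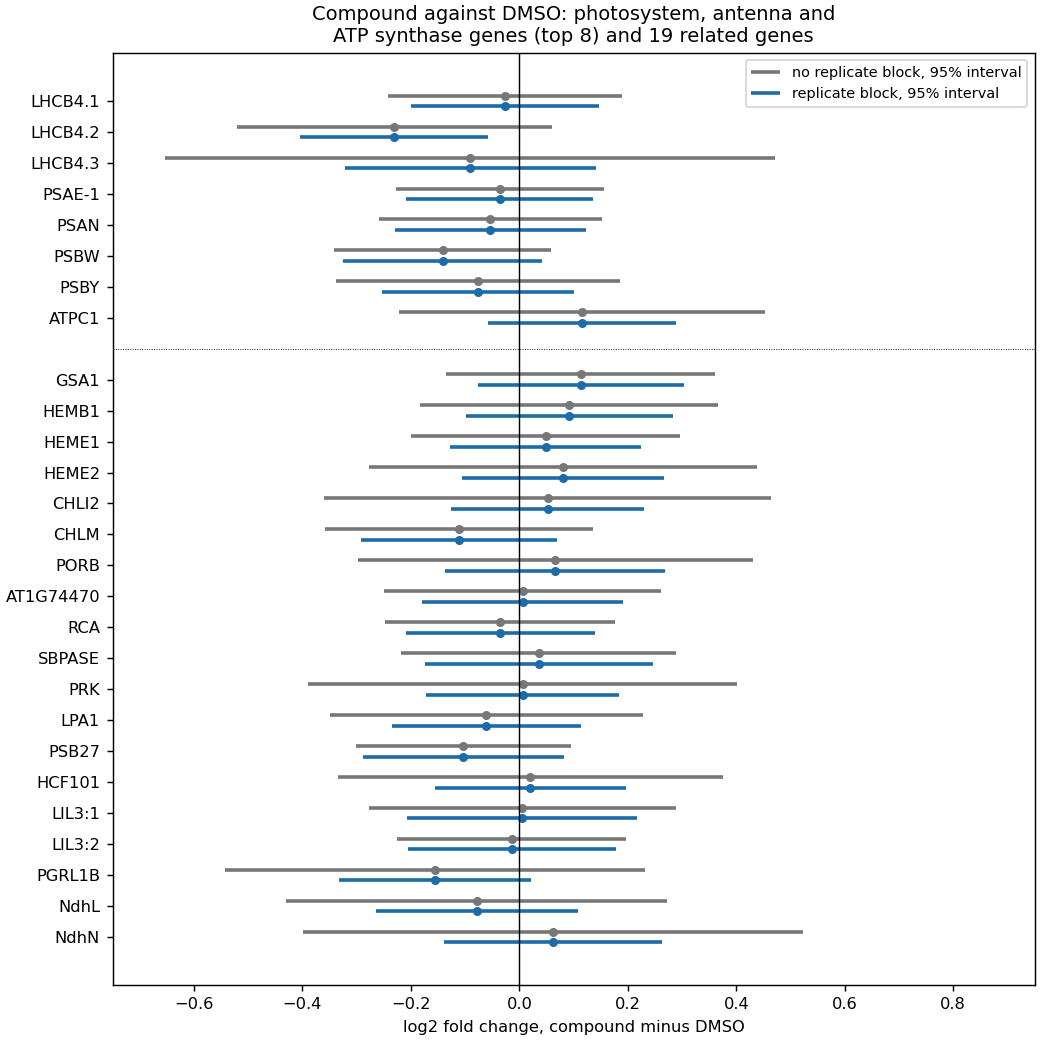
Log2 fold change, compound minus DMSO (x axis), of the 8 measured genes above the dotted line and 19 related photosynthesis genes below it, with 95% limma intervals without (grey) and with (blue) the replicate block. Among these 27 genes, LHCB4.2 alone has an interval that leaves out 0, and this holds with the block and before adjustment.

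In most of these genes the replicate numbers came in the same order in both groups. An F test given below called 1 of the 8 genes for the replicate number. In 6 of the 8 genes, LHCB4.1, LHCB4.2, PSAE-1, PSAN, PSBY and ATPC1, replicate 1 was the highest array of both groups, a pattern found in 21.7% of all probe sets and 24.1% of the brightest 1%. In 7 of the 8 the 3 numbers had the same order in both groups, against 38.3% of all probe sets and 53.9% of the brightest 1%. The exception was PSBW, where replicate 3 was the highest of the compound arrays and replicate 1 the highest of the DMSO arrays. Averaged over both groups, the highest and lowest replicate numbers were 0.66 apart on the log2 scale for LHCB4.3, 0.36 for ATPC1, 0.29 for LHCB4.2, 0.24 for PSBY, and 0.08 to 0.14 for the other 4 genes. For 7 of the 8 genes, all but PSBW, this spread was wider than the difference between compound and DMSO. The median spread was 0.192 over the 8 genes and 0.246 over all probe sets. For the size of the difference the medians were 0.083 and 0.085. A range over 3 replicate numbers and a difference between 2 group means are unlike measures.

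**Figure D3:**
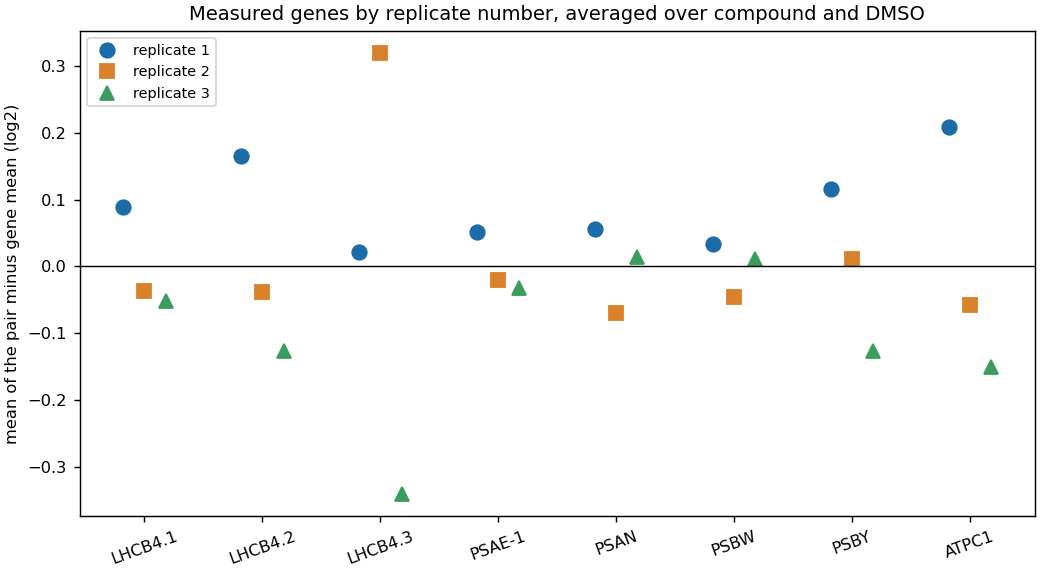
Mean of the compound and DMSO arrays of each replicate number minus the gene's mean over all 6 arrays (y axis, log2), for the 8 measured genes. Replicate 1 lies above 0 in every gene shown, and LHCB4.3 alone has replicate 2 on top.

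An F test of the replicate number in the fit that also held treatment called 1 of the 8 genes, LHCB4.3 (limma adjusted p = 0.021), where 5284 of 22746 probe sets (23.2%) were called. ATPC1 missed the threshold at an adjusted p of 0.054, and the other 6 genes had values from 0.107 to 0.8. When the prior variance followed the signal, the fit in which LHCB4.2 also passed for the compound, LHCB4.2 (adjusted p = 0.0235) and ATPC1 (adjusted p = 0.00841) were called as well. Without replicate 2, LHCB4.3 and ATPC1 were called, and without replicate 3 the test called 0 of the 8. The share of all probe sets called in these alternative fits is not given here, so their counts have no background beside them. What same-numbered arrays had in common is not given in the labels.

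Within replicate numbers, 5 of the 8 genes (LHCB4.2, PSAE-1, PSAN, PSBW and PSBY) had a lower value with the compound in all 3 numbers, as did 16.5% of all probe sets. Among the 228 probe sets of the brightest 1%, which hold 7 of the 8 genes, the share was 31.1%, the median log2 fold change -0.02 and the share with a lower mean 57.0%. ATPC1 was the 1 gene with a higher value in all 3 numbers, beside 21.2% of all probe sets. The genes share the same 6 arrays, so that these counts are not independent of each other, and no test was made over them.

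By mean signal over the 6 arrays, PSAE-1, LHCB4.1 and PSAN ranked 25, 26 and 38 among the 22746 probe sets, and PSBY, LHCB4.2, PSBW and ATPC1 ranked 83, 84, 94 and 105. LHCB4.3 ranked 6881. The brightest value of an array lay between 14.02 and 14.11, and PSAE-1 and LHCB4.1 came within 0.56 and 0.55 of it on the array where they were closest. In the brightest 1% the median SD within groups was 0.125 and the 95th percentile of the size of the log2 fold change 0.323, against 0.187 and 0.437 in the probe sets between the brightest 5% and 10%. The dimmer 50% of probe sets had values of 0.126 and 0.342, close to those of the brightest 1%. Limma called 0 of the 228 brightest probe sets without the block, where 78 of all 22746 were called, and 5 with it, at sizes from 0.387 to 0.686 on the log2 scale.

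Over the 6 arrays ATPC1 spanned 12.36 to 12.83, LHCB4.2 12.44 to 12.95 and PSAE-1 13.36 to 13.47. The processed values hold no scanner intensities, so whether probes were saturated was not tested. Neither these spans nor the values of the dimmer probe sets can decide it. LHCB4.3, far below these bright genes, was not called for the compound in any fit.

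**Figure D4:**
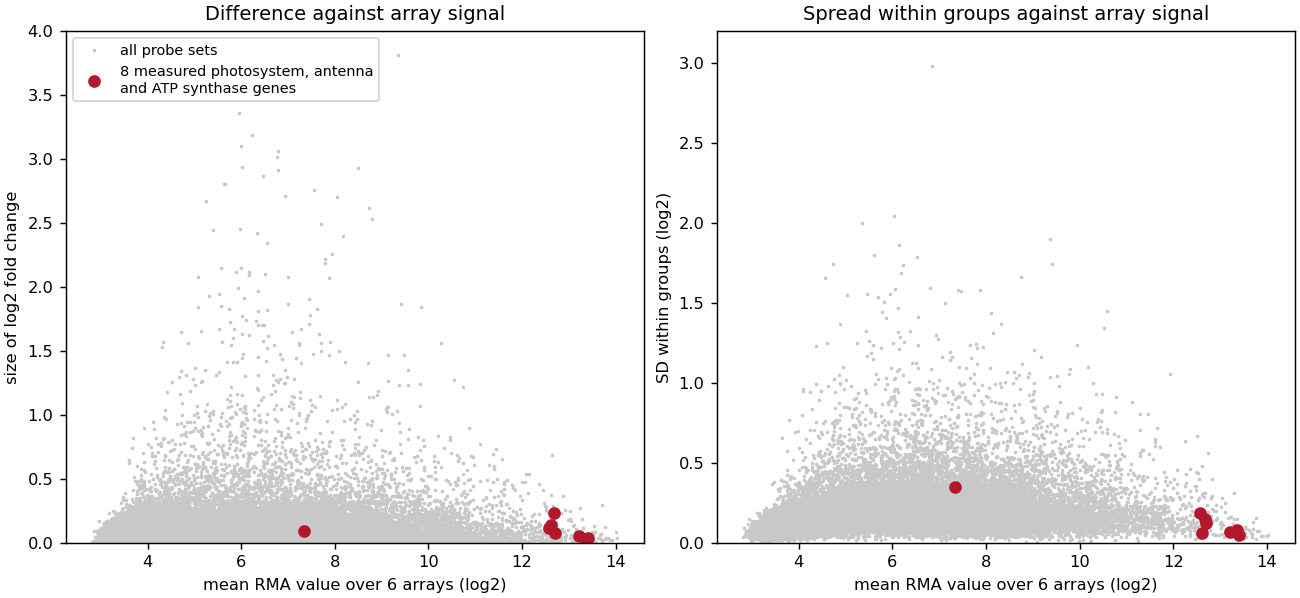
Size of the log2 fold change (left) and SD within groups (right) against the mean RMA value over 6 arrays (log2), for all 22746 probe sets (grey) and the 8 measured genes (red). Of the 8 genes, 7 sit at the bright end, where both quantities are mostly small, as they are at the dim end, and LHCB4.3 sits in the middle of the scale.

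Related genes of photosynthesis were read from the same fits. Of 95 genes on 6 lists, 19 were measured, and limma called 0 of the 19 without and 0 with the block. At an unadjusted p below 0.05 it also counted 0 of the 19 in both fits, beside 1220 and 3645 of all 22746 probe sets. Their median log2 fold change was 0.01, and 12 of the 19 had a higher mean with the compound, as did 54.8% of all probe sets. None of the 14 genes listed as regulators of light response and greening was measured.

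Of 8 measured genes of chlorophyll synthesis, out of 24 listed, 7 had a higher mean with the compound, beside 54.8% of all probe sets. None of the 8 was called, and at an unadjusted p below 0.05 limma counted 0 of them without and with the block. GSA1, for an early step that makes the precursor 5-aminolevulinic acid, was at a log2 fold change of 0.11 (SE 0.10), and CHLM, a methyltransferase for magnesium protoporphyrin, at -0.11 (SE 0.10). PORB, the light-driven protochlorophyllide reductase, was at 0.07 (SE 0.15). These 3 overlapped between groups, with an adjusted p of 0.999 each in limma.

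The 3 measured genes of the Calvin-Benson cycle lay between -0.04 and 0.04, among them RCA, the activase of Rubisco, at -0.04 (SE 0.09). RCA ranked 5 in brightness, closer to the top than any of the 8 genes above. Of 3 measured genes for assembly and repair, PSB27, for a lumenal assembly factor of photosystem II, had the lowest value, -0.10 (SE 0.08). Its compound arrays, at 12.10, 12.17 and 12.12, all lay below the DMSO arrays, at 12.31, 12.21 and 12.17. The closest 2 differ only beyond the printed decimals. PSB27 was the 1 gene of the 19 whose groups did not overlap, beside 9.74% of all probe sets. PGRL1B, of cyclic electron flow around photosystem I, was at -0.16 (SE 0.16), the lowest of 3 genes of photoprotection and electron flow. NdhL and NdhN, of the chloroplast NDH complex, were at -0.08 (SE 0.15) and 0.06 (SE 0.19).

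Markers of other cells were read beside these values, 4 of 20 listed. Both measured root hair markers fell, EXPA7 with a log2 fold change of -2.10 and EXPA18 with -1.81 (limma adjusted p 0.042 and 0.0266). Summed on the linear scale, the pair stood at 83.9 to 91.4 with the compound and 240 to 457 with DMSO. PYK10, a marker of other root cells, was at -0.10 (SE 0.12), and the guard cell marker FMA (FAMA) at 0.10 (SE 0.24), with a limma adjusted p of 0.999 each. The markers listed for shoot epidermis and vascular tissue were not measured. Whether the root markers bear on the values of the photosystem genes was not tested.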

How the data were processed

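The authors deposited 1 log2 value for each probe set and array, computed with RMA according to the submitters' processing notes. The software version was not given in the sources used here. Per the labels' protocols, 100 ng of total RNA per sample was labelled for the array. No detection calls or intensities were used, and the number of arrays limits the precision. Of 22810 probe sets, 64 control probe sets were left out. Of the 22746 tested, 13513 (59.4%) had 1 gene in the platform annotation, 503 had several and 8730 (38.4%) were unnamed here. Gene numbers were matched to locus tags of the TAIR10.1 gene table (13436 matched). Probe sets with several genes named no gene, and each measured gene had 1 probe set.

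The comparison of compound with DMSO used limma 3.58.1 under R 4.3.3, with lmFit, eBayes and a model of treatment alone, with Benjamini-Hochberg adjustment over the 22746 probe sets and a threshold of 0.05. The fit was tested on simulated data with equal noise for all probe sets and changes far larger than those of the 8 measured genes. That simulation says nothing of changes as small as theirs. Arrays with the same number in the titles correlated at 0.727, 0.728 and 0.743 in their deviations from the group means. The main fit did not pair the samples, and the fit with these numbers as a block is given beside it. An SE or adjusted p printed without mention of the block comes from the model of treatment alone, except that the F test of the replicate number used the block. The samples are called biological replicates in the titles, without further detail. The p-values of limma rest on the variation between these samples, and with the block on that left after the replicate means are removed. In both fits eBayes also draws on the variances of all probe sets. The genes, lists and tests were chosen with earlier results of these data known. Of the rule for naming genes, which gave array values for called, extreme, brightest, dimmest and paired genes, the 8 measured genes were all described, and of each related list the gene with the smallest p. For chlorophyll synthesis that gene was GSA1 without the block and CHLM with it, and both were described. PORB, NdhN and the CP29 pairs were added after their values were seen. Blocked fits that changed a second setting were also added after the data were seen. Promoter motifs and sequences were not analysed here.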

Additional observations from a re-analysis of the deposited data

How the results depend on the processing

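Over the 14 alternative fits listed at the outset, limma called 0 of the 8 genes and 0 of the 19 related genes in each. Of 3 blocked fits added after the data were seen, 1 called LHCB4.2 (1 down, adjusted p = 0.0411, prior variance following the signal), where 538 probe sets were called up and 595 down. The block with centred arrays (398 up, 454 down) and with a mean of at least 4 (403 up, 434 down) called 0 of the 8, and LHCB4.2 had an adjusted p of 0.174 and 0.165 there. At an unadjusted p below 0.05 the 14 fits counted at most 1 of the 8, always LHCB4.2, and the added fits 1, 1 and 2, with 0 of the 19 in each. Over all probe sets the 14 fits counted from 966 of 17105 (mean at least 4) to 3645 of 22746 (replicate block). For the added fits that count is not given here. The sign of the difference was the same in all 14 fits for 6 of the 8. The median log2 fold change of the 8 lay between -0.09 and -0.01 over all alternatives, and was -0.09 for LHCB4.3 alone, outside the brightest 1%. The signs that turned belonged to LHCB4.1, at -0.081 to 0.00805 when 1 array was left out (0.0012 without compound replicate 3), and LHCB4.3, at -0.31 to 0.12 (0.12 without compound replicate 3 and 0.0087 without DMSO replicate 2). LHCB4.2 ranged from -0.32 to -0.16 and ATPC1 from 0.02 to 0.23. Over all probe sets limma called 416 up and 449 down with the replicate block, 216 up and 275 down with the number as a random block, and 27 up and 51 down without it. Leaving out 1 array gave 0 to 22 up and 0 to 61 down, with 0 in all when compound replicate 1, 2 or 3 was left out (1022, 1049 and 1047 at an unadjusted p below 0.05), 1 up without DMSO replicate 3, 22 up and 18 down without DMSO replicate 2, and 15 up without DMSO replicate 1. The block gave 204 up and 312 down without pair 1, 406 up and 337 down without pair 2, and 101 up and 104 down without pair 3. The number of the 8 genes that differed between replicate numbers was 1, and 3 with a prior variance that followed the signal, and 0 to 2 without 1 pair. For the count of 1 the share of all probe sets was 23.2%, and for the other fits that share is not given here. The causes were not tested. No probe set shared by several listed genes existed to be added, each gene had 1 probe set, and the gene table held all 8 symbols, so these alternatives left the median as it was. The block changed no call of the 8 genes except that of LHCB4.2 in the fit with the prior variance following the signal.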
